A study of Mus musculus with 18 samples.

Results

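The Dlk1-Dio3 imprinted region of mouse chromosome 12 was described in 44 genes: the protein-coding genes Dlk1 and Dio3 at its ends, the long non-coding RNA genes Meg3 and Rian, and 40 microRNA genes. They were taken as all genes with a symbol starting Mir that lie between Dlk1 and Dio3, together with Dlk1, Meg3, Rian and Dio3, that had a probe set naming 1 gene, out of 19938 genes with such a probe set on the array. Members were chosen by symbol and position; the only measured value in the rule was the mean level over all arrays, by which 1 of several probe sets of a gene was selected, and each of the 44 genes had only 1. The region itself was picked with earlier results of these data known, in which some of its microRNA genes had stood out. The RefSeq gene table (assembly GRCm38.p6) places 61 microRNA genes in this interval, and the ones without such a probe set, and the long non-coding RNA gene Mirg, were not analysed here. Rtl1, DQ267101 and DQ267102, which also lie in the interval, are given beside the 44 genes and not counted among them.

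The samples were wild type mouse embryonic fibroblasts from 2 C57BL/6 mice, grown from embryos at embryonic day 13 without head and liver; the labels also give these wild type embryos as siblings of Bmal1 knockout ones. All of them had been exposed to 100 nM dexamethasone, a glucocorticoid that sets the clocks of cultured cells to a common phase, for 2 h. RNA was taken at 22, 26, 30, 34, 40 and 46 h, with 3 arrays per time, which are biological replicates by their labels; no sample without dexamethasone and no mutant entered the comparisons. The labels do not say whether the 3 came from separate cultures, so the p-values cover only the spread among the samples as taken, which may be technical. In bulk RNA, fewer cells of a type and less RNA per cell cannot be told apart.

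Over the 18 arrays the median intensity ran between 196 and 210, and precision is limited by how many arrays there were. Levels below are log2(intensity + 16) after quantile normalization. The 12 fibroblast markers had a median level of 12.4, against 8.07 for all genes. The 43 markers of muscle, neural, endothelial and blood, fat, pluripotent and trophoblast cells had a median of 6.93. Single markers ran from 7.31 (Thy1) to 13.47 (Fn1) among the fibroblast markers and from 6.00 (Lyz2) to 9.49 (Acta1) among the others. Signals of different probe sets depend on their probes and are not amounts of RNA that can be ranked between genes.

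In imprinted regions the copy of a gene that is read depends on the parent it came from. In this region Dlk1, Rtl1 and Dio3 are known as genes read from the paternal chromosome, while Meg3, Rian, Mirg and the microRNAs are read from the maternal one, largely as parts of long transcripts from which small RNAs are cut. A microRNA pairs with messenger RNAs through its seed, bases 2 to 8, and lowers their output. The microRNA genes lie in 3 stretches: 8 between Meg3 and Rian, 2 within Rian and 30 beyond Rian, and the last of these hold one of the largest microRNA clusters of mammals.

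RefSeq held mature sequences for all 40 microRNA genes, 76 in all, and hairpins for 39, each on the + strand. The first sequences shown are from one or both arms of the 6 members that passed the 24 h cosine test below, with the seed in capitals.
miR-543-3p: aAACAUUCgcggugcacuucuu
miR-376c-5p: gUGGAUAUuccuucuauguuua
miR-381-3p: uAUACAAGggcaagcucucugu
miR-154-5p: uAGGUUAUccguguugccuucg
miR-154-3p: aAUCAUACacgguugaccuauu
miR-496a-5p: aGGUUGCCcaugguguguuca
miR-496a-3p: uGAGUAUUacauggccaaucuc
miR-541-5p: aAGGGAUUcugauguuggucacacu
The 76 mature sequences had 74 different seeds, so that the microRNAs described here do not form one seed family. The first of the 2 seeds that a pair of genes shared was that of miR-376c-5p above, which miR-376b-5p also carries. The second was shared by miR-379-3p and miR-411-3p. These 3 sequences are shown to set both shared seeds side by side.
miR-376b-5p: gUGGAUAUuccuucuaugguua
miR-379-3p: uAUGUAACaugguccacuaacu
miR-411-3p: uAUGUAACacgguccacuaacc
The next sequences are hairpins, shown with the mature stretches in capitals: Mir496a, which had the smallest p of the region in the cosine, F and 40 h against 26 h tests (chr12:109739119-109739197, + strand, GRCm38.p6), and the lowest and highest G and C share among the hairpins beyond Rian, which are Mir376c with 29.1% and Mir667 with 62.0%.
Mir496a hairpin: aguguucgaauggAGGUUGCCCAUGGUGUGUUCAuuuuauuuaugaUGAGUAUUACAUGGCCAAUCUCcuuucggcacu
Mir376c hairpin: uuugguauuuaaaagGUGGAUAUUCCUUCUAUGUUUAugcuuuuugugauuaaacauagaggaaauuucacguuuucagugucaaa
Mir667 hairpin: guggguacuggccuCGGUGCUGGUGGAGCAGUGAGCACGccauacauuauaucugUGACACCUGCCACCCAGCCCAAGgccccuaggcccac
The probe sets are annotated to the microRNA genes by the platform table, and the target was made from total RNA by random priming, per the labels. Signal from the mature microRNA, from its hairpin and from the long transcript around it cannot be told apart.

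The microRNA genes beyond Rian held most of the calls described below, and Meg3 and Rian had none. Among the 30 genes beyond Rian, the highest time mean was at 26 h in 16 genes and at 30 h in 8, and the lowest was at 40 h in 17, at 34 h in 7 and at 22 h in 6. Set against 22 h, their median difference was 0.16 at both 26 h and 30 h. It was -0.11 at 34 h and -0.12 at 40 h, and 46 h stood at 0.05. The medians of all genes differed from 22 h by 0.01 to 0.04 at these times.

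The first question was which genes of the region differed between any of the 6 times. The F test called 17 of the 44 genes at an adjusted p under 0.05 (limma, Benjamini-Hochberg over all genes), where 19.8% of all genes were called. Of the 17, 14 were microRNA genes beyond Rian, 2 were the microRNA genes Mir665 and Mir136 between Meg3 and Rian, and the last was Dio3. The count was 10 without replicate 3 at 26 h and 11 without replicate 3 at 34 h, and 8 of the 17 kept their call with any 1 array left out.

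**Figure D1:**
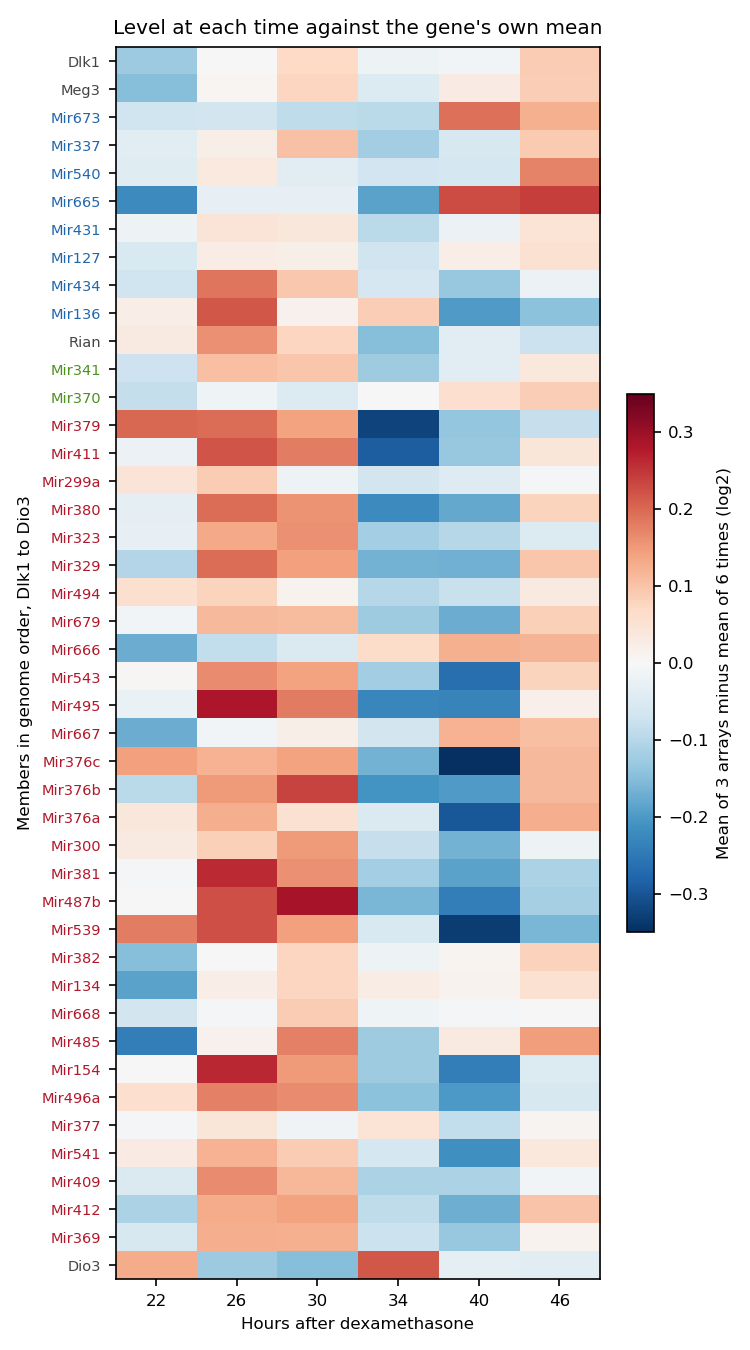
Mean level of the 44 genes at each of the 6 times (columns, hours after dexamethasone; 3 arrays each) minus the gene's own mean over the times, in log2 units as colour; rows run in genome order, with microRNA genes between Meg3 and Rian in blue, within Rian in green and beyond Rian in red. Most rows beyond Rian are red at 26 h and 30 h and blue at 34 h and 40 h. Exceptions are Mir299a, Mir666, Mir667, the rows from Mir382 to Mir485, and Mir377.

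Each protein-coding gene at the ends of the region passed 1 of the 4 tests. Dlk1, an epidermal growth factor repeat protein related to the Notch ligands that holds back fat cell differentiation, had levels of 12.16, 12.35 and 12.12 at 22 h, 12.39, 12.27 and 12.35 at 26 h, then 12.38, 12.41 and 12.45 at 30 h. Its levels were 12.29, 12.36 and 12.32 at 34 h, 12.39, 12.22 and 12.38 at 40 h, then 12.41, 12.44 and 12.44 at 46 h. All 3 arrays of 46 h lay above all 3 of 22 h. The difference of 46 h minus 22 h was 0.22 ± 0.06 (SE) with an adjusted p of 0.0169 in limma, while the F test over the times did not call Dlk1 (adjusted p = 0.109). The 46 h call of Dlk1 was lost without replicate 1 or 3 at 22 h or replicate 2 or 3 at 46 h, with an adjusted p of up to 0.0977, and the F test called Dlk1 once replicate 2 of 22 h was left out (adjusted p = 0.0193).

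Dio3 encodes the deiodinase that inactivates thyroid hormone. Its levels were 5.72, 5.70 and 5.97 at 22 h, 5.68, 5.50 and 5.44 at 26 h, then 5.44, 5.58 and 5.52 at 30 h. They were 5.87, 5.83 and 5.94 at 34 h, 5.60, 5.48 and 5.82 at 40 h, then 5.47, 5.70 and 5.71 at 46 h. The 34 h arrays lay above all arrays of 26, 30, 40 and 46 h, and overlapped those of 22 h. Dio3 passed the F test with an adjusted p of 0.0364, and lost that call in 9 of the 18 fits with 1 array left out. Its mean level of 5.67 lies low on a scale where all genes have a median of 8.07. Rtl1, a protein derived from a retrotransposon and needed in the placenta, had time means between 7.37 and 7.44 and no call in any of the 4 tests (F test adjusted p = 0.897).

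Neither long non-coding RNA was called in any test. Meg3 had levels of 11.55, 11.82 and 11.53 at 22 h, 11.75, 11.72 and 11.90 at 26 h, then 11.93, 11.84 and 11.80 at 30 h. The later arrays of Meg3 read 11.70, 11.83 and 11.66 at 34 h, 11.99, 11.73 and 11.71 at 40 h, then 11.82, 12 and 11.78 at 46 h. Replicate 2 of 22 h stood apart from the other 2 arrays of that time and overlapped 46 h. For 46 h minus 22 h the difference of Meg3 was 0.24 ± 0.09 (adjusted p = 0.0686 in limma), and without that array it was 0.33 (adjusted p = 0.0126); without replicate 1 at 40 h the adjusted p was 0.0451.

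Rian, the host transcript of many small nucleolar RNAs, had levels of 8.75, 8.75 and 8.68 at 22 h, 8.80, 8.78 and 8.99 at 26 h, then 8.70, 8.71 and 8.91 at 30 h. Its levels were 8.35, 8.60 and 8.69 at 34 h, 8.76, 8.82 and 8.39 at 40 h, then 8.57, 8.66 and 8.64 at 46 h. The highest time mean of Rian was at 26 h and the lowest at 34 h, but 1 array at 34 h and 1 at 40 h accounted for the lowest readings. The 40 h minus 26 h difference was -0.20 ± 0.10 with an adjusted p of 0.221 (limma), and the arrays of those times overlapped. The small RNA genes DQ267101 and DQ267102, which overlap Rian in the RefSeq table, had differences of -0.27 (adjusted p = 0.117) and -0.29 (adjusted p = 0.074).

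**Figure D2:**
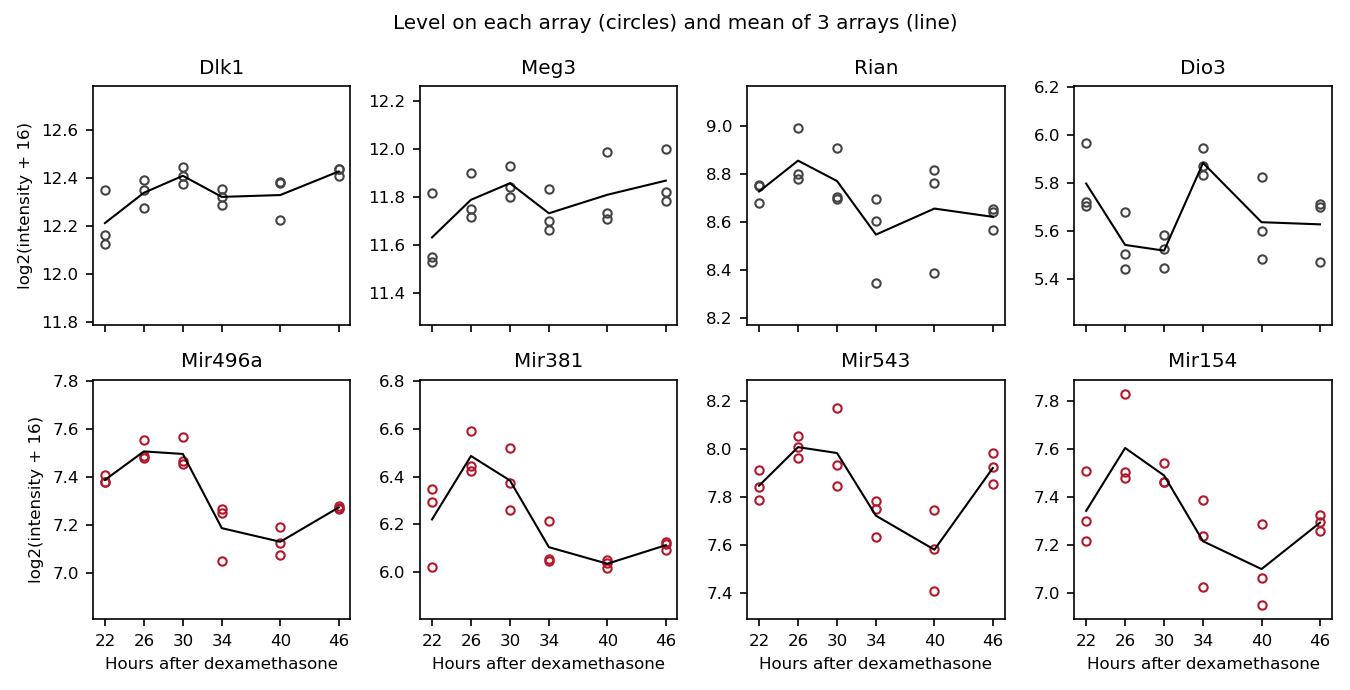
Level of 8 genes, log2(intensity + 16) on the vertical axes (each panel spans 1 log2 unit around its own range), against hours after dexamethasone; each circle is 1 array and the line joins the means of 3 arrays. Dlk1, Meg3, Rian and Dio3 are in the upper row; in the lower row Mir496a, Mir381, Mir543 and Mir154 have their highest mean at 26 h and their lowest at 40 h.

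The next comparison was that of 40 h with 26 h, the times nearest the low and high points that earlier results of these data gave for some of these genes, so its choice is not independent of them. At 40 h 16 of the 44 genes were lower and 0 were higher than at 26 h (adjusted p under 0.05 in limma). Of all genes 12% were called, 5.74% lower and 6.23% higher. At an unadjusted p under 0.05, 23 of the 44 were lower and 3 higher. Of all 19938 genes 2455 were lower and 3123 higher at that threshold. Of the 16, 15 were among the 30 microRNA genes beyond Rian, and the other was Mir136. Over the 30 genes beyond Rian the median difference was -0.32, with 25 of 30 below 0, while the median over all genes was 0.02. The 15 were Mir679, Mir543, Mir495, Mir376c, Mir376b, Mir376a, Mir381, Mir487b, Mir539, Mir154, Mir496a, Mir541, Mir409, Mir412 and Mir369.

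Of the 12 fibroblast markers, 2 were higher and 0 lower at 40 h than at 26 h (3 higher and 1 lower at an unadjusted p under 0.05), and the median intensity of an array was 204 to 209 at 40 h, against 197 to 199.8 at 26 h. Their part in the result was not tested.

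The calls depended on single arrays. Without replicate 3 at 26 h the count was 7, and without replicate 3 at 40 h it was also 7; with any other array left out it was between 11 and 17. Mir136, Mir543, Mir381, Mir539, Mir154 and Mir496a kept their call with each array left out in turn and with the other alternatives run gene by gene, and the other 10 lost it at least once.

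Mir496a had the smallest p. It read 7.19, 7.08 and 7.12 at 40 h, against 7.56, 7.48 and 7.49 at 26 h. The groups lay apart by more than the range of either, and the difference was -0.38 ± 0.06 (adjusted p = 0.000673 in limma). Mir381 read 6.02, 6.04 and 6.05 at 40 h, against 6.44, 6.42 and 6.59 at 26 h, a difference of -0.45 ± 0.08 with an adjusted p of 0.0024. Mir543 read 7.58, 7.75 and 7.41 at 40 h, against 8.05, 7.96 and 8.01 at 26 h. For Mir543 the 40 h arrays were more spread than the 26 h arrays, and the difference was -0.43 ± 0.08 (adjusted p = 0.00491).

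The largest difference was that of Mir539. Its levels were 7.19, 7.08 and 7.21 at 40 h, against 7.93, 7.43 and 7.80 at 26 h, and no array of 40 h reached those of 26 h. The difference was -0.56 ± 0.12 with an adjusted p of 0.00898. Mir495 read 6.61, 6.15 and 6.02 at 40 h, against 6.74, 6.68 and 6.92 at 26 h, so that its groups nearly touched, and its call (-0.52 ± 0.15, adjusted p = 0.0349) was lost without any 1 of the 3 arrays at 26 h or without replicate 2 or 3 at 40 h. Mir154 read 7.29, 6.95 and 7.06 at 40 h, against 7.48, 7.51 and 7.83 at 26 h. Its groups did not overlap and the difference was -0.51 ± 0.11 (adjusted p = 0.00722).

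The Mir376 genes are close paralogs in neighbouring positions, and in mammals their primary transcripts are known to be edited from adenosine to inosine. Mir376c read 5.22, 5.43 and 5.55 at 40 h, against 5.86, 5.95 and 5.83 at 26 h, a difference of -0.48 ± 0.12 (adjusted p = 0.019). Mir376a read 7.04, 7.41 and 7.18 at 40 h, against 7.65, 7.69 and 7.57 at 26 h, a difference of -0.42 ± 0.13 (adjusted p = 0.0372). All 40 h arrays of Mir376c, Mir376a and Mir376b lay below all their 26 h arrays, with -0.34 for Mir376b (adjusted p = 0.0239). Probe sets of similar hairpins can share labelled target. Whether these did was not examined, so these 3 genes are not taken as independent measurements. Without replicate 1 at 40 h the adjusted p was 0.0898 for Mir376c and 0.154 for Mir376a.

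Mir487b read 7.30, 6.91 and 6.95 at 40 h, against 7.49, 7.25 and 7.81 at 26 h; its groups overlapped, and its difference of -0.47 ± 0.13 had an adjusted p of 0.0254. Mir136, which lies opposite Rtl1, read 6.03, 6.16 and 6.10 at 40 h, against 6.50, 6.48 and 6.55 at 26 h. Its groups stood apart, and the difference was -0.42 ± 0.09 with an adjusted p of 0.00871. The mean level of Mir136 was low, at 6.29. The remaining 6 called genes (Mir679, Mir541, Mir409, Mir412, Mir369 and Mir376b) had differences between -0.26 and -0.34.

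**Figure D3:**
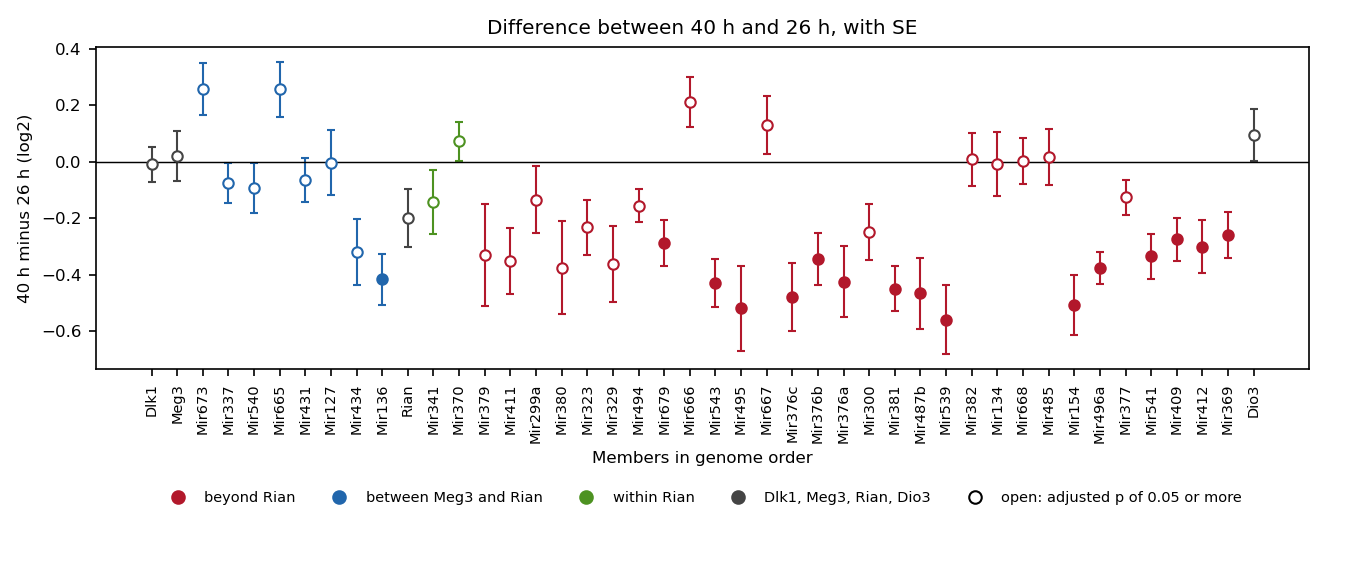
Difference of 40 h minus 26 h in log2 units (vertical axis; bars are the SE of the fit, 3 arrays per time) for the 44 genes in genome order; filled points have an adjusted p under 0.05. The filled points lie between -0.26 and -0.56, and all but that of Mir136 are beyond Rian, where Mir666, Mir667, Mir382, Mir668 and Mir485 sit at or above 0.

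In the fit of a 24 h cosine, whose amplitude is how far the fitted peak stands above the mean in log2 units, 6 of the 44 genes passed at an adjusted p under 0.05 (limma), where 0.828% of all genes were called. They were Mir543, Mir376c, Mir381, Mir154, Mir496a and Mir541, and all 6 were also called by the F test and at 40 h against 26 h. Their fitted peaks fell between 26.1 and 27.6 h and their amplitudes between 0.17 and 0.28. Earlier results of these data had already named several of them, so these peak times are a description.

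The amplitude was 0.22 ± 0.03 for Mir496a (peak 27.1 h, adjusted p = 0.00846) and 0.23 ± 0.04 for Mir543 (peak 26.8 h, adjusted p = 0.0186). Mir376c had the largest amplitude of the 6, 0.28 ± 0.06 (peak 26.1 h, adjusted p = 0.0406). The mean levels of Mir376c (5.76) and Mir381 (6.22) lie low on a scale where all genes have a median of 8.07. Those of Mir496a (7.33), Mir154 (7.34), Mir541 (7.77) and Mir543 (7.84) were below that median too. Among all genes of the region called at 40 h against 26 h, only Mir679 (8.70) and Mir369 (8.24) had mean levels above it. The 43 markers of other cell types had a 90th percentile of 8.29, which only Mir679 of these called genes exceeded. The times cover 1 cycle, so a repeat of the course was not measured. Mir496a read 7.27, 7.28 and 7.27 at 46 h, against 7.41, 7.38 and 7.38 at 22 h, so that the arrays 24 h apart lay apart, whereas those of Mir543 overlapped, with 7.98, 7.86 and 7.92 at 46 h, against 7.84, 7.91 and 7.79 at 22 h. Only Mir496a kept its cosine call without each array and in the other alternatives run gene by gene. The count was 1 without replicate 3 at 40 h, 2 without any 1 of replicates 1, 2 and 3 at 26 h or replicates 2 and 3 at 30 h, and 3 without replicate 3 at 34 h or replicate 1 at 46 h. It was 0 at a period of 22 h, where 23 of the 44 genes had an unadjusted p under 0.05, and 13 at a period of 26 h. The shares of all genes at these periods are not given here, so these counts do not set the region apart.

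The times 24 h apart, 46 h and 22 h, stand at the same point of such a cycle. At an unadjusted p under 0.05 (limma), 12 of the 44 genes were higher and 1 lower at 46 h than at 22 h. Of all 19938 genes 3831 were higher and 2845 lower at that threshold. At an adjusted p under 0.05, 4 of the 44 were higher and 0 lower. Of all genes 21.2% were then called, 11.5% higher and 9.73% lower. The share of 4 in 44 is close to the 11.5% of all genes. Besides Dlk1 they were Mir665, Mir666 and Mir485. Mir665, between Meg3 and Rian, read 9.73, 9.98 and 9.82 at 46 h, against 9.36, 9.53 and 9.24 at 22 h. No array overlapped, the difference was 0.47 ± 0.10 (adjusted p = 0.0025), and it was called in every fit that left out 1 array. Mir485, a microRNA known from rat and mouse neurons to act at synapses, read 9.57, 9.50 and 9.61 at 46 h, against 9.16, 9.38 and 8.98 at 22 h, a difference of 0.39 ± 0.10 (adjusted p = 0.00941). Mir666 read 8.86, 8.80 and 8.73 at 46 h, against 8.30, 8.76 and 8.45 at 22 h. Its groups overlapped through replicate 2 of 22 h, and the difference was 0.29 ± 0.09 (adjusted p = 0.023). Mir485 lost its call without replicate 3 at 22 h (adjusted p = 0.0649), and Mir666 without replicate 1 or 3 at 22 h or replicate 1 or 2 at 46 h (adjusted p of 0.0616 to 0.143).

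The count at 46 h was 1 without replicate 3 at 22 h, 2 without replicate 1 at 22 h or replicate 2 at 46 h, and 8 without replicate 2 at 22 h. Fibroblast markers moved over the same interval: 6 of 12 were higher and 1 was lower at 46 h than at 22 h, with a median difference of 0.20, and their median level was 12.54 to 12.61 on the arrays of 46 h, against 12.14 to 12.32 on those of 22 h. Their part in the result was not tested. The medians of the 5 lists of other cell types stayed between 6.35 and 7.41 on all arrays.

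The members beyond Rian were not alike. After their values were seen, the 6 with a mean level of at least 9, Mir667, Mir382, Mir134, Mir668, Mir485 and Mir377, were set apart. Mir134 is known in rat hippocampal neurons to limit the size of dendritic spines. In these 6 genes the 40 h minus 26 h differences lay between -0.13 and 0.13 with no call, and in the other 24 the median was -0.35 and 15 were called. Across the 30 genes, Spearman's rho between mean level and this difference was 0.69 in the 29 with a hairpin sequence. It was 0.30, in the same direction, in 219 of the 260 microRNA genes elsewhere in the genome. The 30 genes were measured on the same 18 arrays and share transcripts in part, so no test was made.

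The levels of most of these 6 genes ran with that of Meg3. This was not particular to them, with r of 0.78 for Mir127, 0.77 for Mir665, 0.75 for Dlk1 and 0.73 for Mir337. Over the 18 arrays the level of Mir134 correlated with that of Meg3 at r = 0.88, Mir382 at 0.82, Mir668 and Mir667 at 0.79 each and Mir485 at 0.78, while Mir377 did so at 0.32 and Mir496a at 0.08. For Mir496a the highest of these correlations within the region was with Mir381 (r = 0.84), followed by Mir487b and Mir543 (0.80 each). With Rian, the largest values were those of Mir411 (0.78), Mir409 (0.71) and Mir379 (0.70), and Mir134 had 0.10. All pairs of the 30 genes had a median r of 0.48, and 0.32 after the mean of each time was taken off. The points share arrays, labelling and, in part, a host transcript.

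Part of this was variation between arrays of the same time. One component held 33.8% of the variance within times over all genes. With the mean of each time taken off, the levels of these 6 genes correlated with it at r between 0.38 and 0.86 (median 0.81). The lowest values were those of Mir377 (0.38) and Mir485 (0.39). In the other 24 genes r ran both ways, between -0.83 for Mir376a and 0.73 for Mir323. The sign of the component was set so that the r of Meg3 is positive. That r was 0.78, with 0.73 for Dlk1 and 0.01 for Rian. What this component stands for was not tested.

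Base composition moved with the differences too. In the 29 genes beyond Rian with a hairpin in RefSeq, Spearman's rho between the G and C share of the hairpin and the 40 h minus 26 h difference was 0.52. It was 0.41 in 219 of the 260 microRNA genes elsewhere in the genome that had a hairpin. Hairpins of up to 40% G and C had a median difference of -0.44 beyond Rian (8 genes), against -0.03 elsewhere (31 genes). From 40 to 50% the medians were -0.34 beyond Rian (15 genes) and -0.002 elsewhere (100 genes), and from 50 to 60% they were -0.25 (4 genes) and 0.16 (69 genes). The single differences overlapped, with -0.56 to 0.008 beyond Rian and -0.33 to 0.28 elsewhere up to 40%, and -0.51 to 0.016 and -0.40 to 0.55 from 40 to 50%. Above 60% the medians were 0.06 beyond Rian (2 genes) and 0.11 elsewhere (19 genes). The part of base composition in the differences was not tested.

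**Figure D4:**
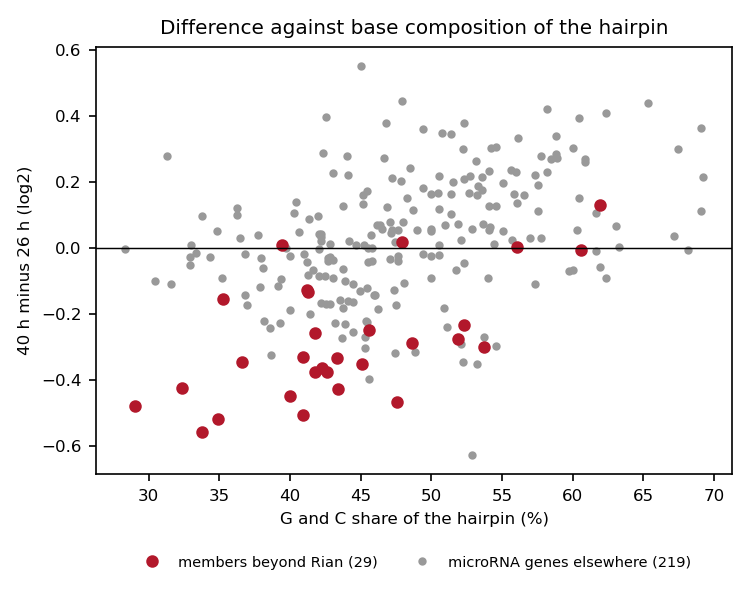
Difference of 40 h minus 26 h in log2 units (vertical axis) against the share of G and C in the hairpin in percent (horizontal axis); each red point is 1 of 29 microRNA genes beyond Rian and each grey point 1 of 219 microRNA genes elsewhere. Red and grey points overlap, with medians of -0.44 and -0.03 up to 40% and of -0.34 and -0.002 from 40 to 50%.

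Other short targets on the array were read the same way. Of 260 microRNA genes elsewhere, 10 were lower and 29 higher at 40 h than at 26 h, with a median of 0.05, and 3 passed the cosine test. Of 51 small nucleolar RNA genes, 11 were lower and 0 were higher at 40 h than at 26 h (limma; 20 and 2 at an unadjusted p under 0.05), with a median of -0.19. At 46 h against 22 h, 26 of these 51 were lower and 0 were higher (30 and 0 at an unadjusted p under 0.05). The median level of the 30 genes beyond Rian was 7.61, 7.63 and 7.46 on the arrays of 40 h, against 7.92, 7.83 and 7.89 on those of 26 h. For the small nucleolar RNA genes it was 8.93, 8.84 and 8.65 at 40 h, against 9.07, 9.10 and 8.96 at 26 h. Both medians were lower at 40 h on every array, but at 46 h that of the microRNA genes beyond Rian was 7.76 to 7.87, overlapping 22 h (7.66 to 7.84), and that of the small nucleolar RNA genes was 8.63 to 8.74, below 22 h (8.98 to 9.15). In the cosine test 2 of the 51 small nucleolar RNA genes passed (3.92%), against 0.828% of all genes. Over the 18 arrays, single genes beyond Rian correlated with the small nucleolar RNA median at r from -0.67 (Mir666) to 0.69 (Mir379), with 0.64 for Mir496a. The part of small nucleolar RNA levels in the result was not tested.

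**Figure D5:**
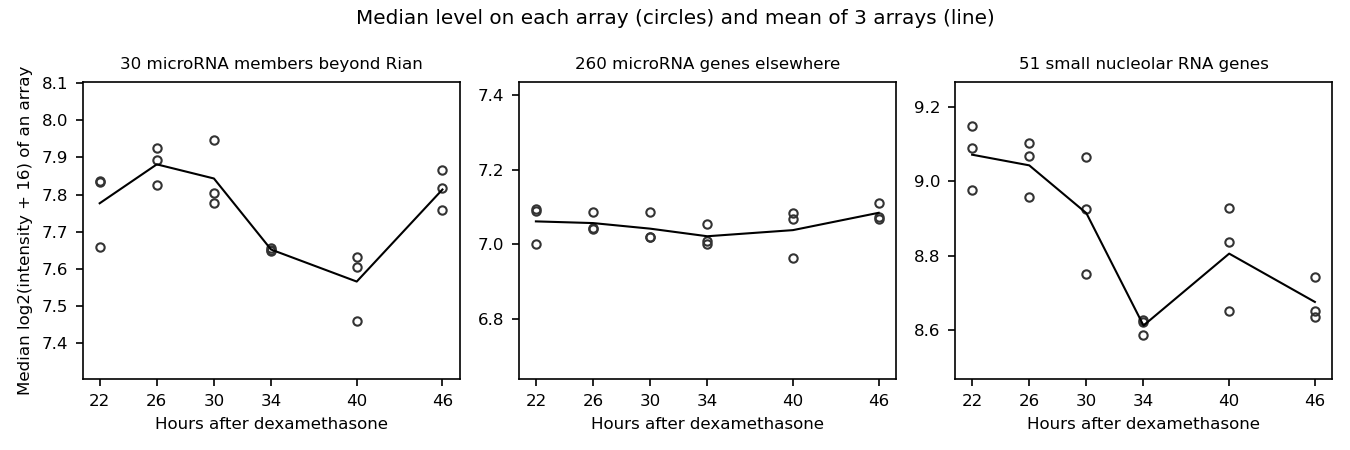
Median level, log2(intensity + 16), on each array (circles) against hours after dexamethasone, with lines through the means of 3 arrays; each panel spans 0.8 log2 units. The median of the 30 microRNA genes beyond Rian is highest at 26 h and lowest at 40 h, that of 260 microRNA genes elsewhere stays between 6.96 and 7.11, and that of 51 small nucleolar RNA genes is lowest at 34 h and remains below its 22 h level at 46 h.

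Between Meg3 and Rian the 8 microRNA genes, which lie opposite the Rtl1 gene and several of which pair with its transcript in full, included Mir665 and Mir136 above, and the other 6 passed no test. Mir673 read 8.10, 7.89 and 8.13 at 40 h, against 7.97, 7.62 and 7.76 at 26 h, a difference of 0.26 (adjusted p = 0.0761), and Mir434 had -0.32 (adjusted p = 0.082). Mir127, Mir431, Mir337 and Mir540 had differences between -0.093 and -0.003. Within Rian, Mir341 and Mir370 had -0.14 and 0.07, with no call.

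Members beyond Rian without a call at 40 h against 26 h included Mir411, which passed the F test (adjusted p = 0.0256) and read 6.84, 7.02 and 6.91 at 34 h, below all its arrays at 22, 26 and 30 h. Mir379, with which it shares a seed, had the widest spread of the region, with 7.09, 6.58 and 6.17 at 40 h, against 6.60, 7.07 and 7.16 at 26 h. That difference of -0.33 ± 0.18 was within the spread (adjusted p = 0.244). Mir380 (-0.38), Mir329 (-0.36), Mir300 (-0.25), Mir323 (-0.23), Mir494 (-0.16) and Mir299a (-0.13) had adjusted p from 0.0882 to 0.49. Mir666 went the other way, with 8.82, 8.84 and 8.76 at 40 h, against 8.59, 8.49 and 8.70 at 26 h; no arrays overlapped, and the difference of 0.21 ± 0.09 was not called (adjusted p = 0.122).

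Genes on both sides of the region were read beside it. Of the 10 measured genes before Dlk1, 1 was lower (Wdr25, -0.33) and 1 higher (Slc25a29, 0.30) at 40 h than at 26 h, and of the 10 after Dio3, 1 was lower (Mok, -0.29); the medians were 0.09 and -0.05. Of 36 genes read as a list of other imprinted genes, 5 were higher and 1 was lower at 40 h than at 26 h, with a median of 0.01. In the cosine test (limma) 0 passed, and 9 had an unadjusted p under 0.05, where 4248 of all 19938 genes did. The 36 include Nckap1, which was matched by a synonym to the listed H19 and is not that gene. Nckap1 passed no test, and H19 itself was not read. Magel2 was higher by 0.33 (adjusted p = 0.00673) and Phlda2 by 0.36 (adjusted p = 0.0276). The fetal growth factor gene Igf2 was higher by 0.21 (adjusted p = 0.0133) and Plagl1, a zinc finger transcription factor, by 0.31 (adjusted p = 0.0248), and the lower gene was Rasgrf1 (-0.32, adjusted p = 0.0292). At 46 h against 22 h 13 of the 36 were higher and 4 lower.

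Genes that act on the region or on its products were read from lists. Of 20 microRNA processing and effector genes, 0 were higher and 0 lower at 40 h than at 26 h (limma; 0 and 4 at an unadjusted p under 0.05). Of 19 genes for imprint maintenance and known regulators of the region, 3 were lower at 40 h, with differences of -0.43 for Uhrf1, -0.27 for Dnmt1 and -0.20 for Ctcf, and Dppa3 was higher by 0.18. Uhrf1 and Dnmt1 keep DNA methylation through cell division and Ctcf is an insulator protein. These 3 were also called lower at 46 h than at 22 h, with -1.11, -0.52 and -0.30 in that order. The median of the genes beyond Rian was 0.05 in that comparison. The cosine test called none of the 3, and their part in the result was not tested. Of 12 genes of thyroid hormone metabolism and action, the pathway of Dio3, 2 were higher and 0 lower (2 and 1 at an unadjusted p under 0.05): the receptor gene Thra by 0.31 and Crym, which binds the hormone, by 0.28. Among 20 genes of the Notch pathway, to which Dlk1 is related, 1 was higher (the receptor gene Notch4, by 0.27) and 0 lower at 40 h (5 and 0 at an unadjusted p under 0.05).

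The E-box CACGTG, a palindrome bound by the CLOCK and BMAL1 pair, was looked for in the RefSeq promoter windows, which run from 250 bases before to 50 bases after a start. It was in 0 of the 1 window of Dlk1, the 2 of Meg3, the 1 of Rian and the 1 of Dio3, and in 7.15% of all 32851 windows. The absence says only that these letters are not in these windows.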

How the data were processed

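Total RNA was labelled by random priming (Affymetrix whole-transcript kits) and hybridised to 18 arrays, 1 sample each, per the labels' protocols. The authors deposited 1 linear intensity per probe set and array, and the submitters' processing notes name the tools Affymetrix Expression Console 1.1 and PLIER 2.0. Of 35556 probe sets, the platform annotation gave 1 symbol to 21789, which named 19938 genes, and the probe set of the highest mean was kept. Values were taken as log2(intensity + 16), so that folds of dim genes come out too small. Lower quartiles of arrays differed by up to 0.154 log2, where 0.1 was allowed, so arrays were quantile normalized.

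A model of 6 time means on the 18 arrays was fitted with limma 3.58.1 in R 4.3.3, giving the F test and both contrasts; a cosine and sine of 24 h were fitted apart. P-values were adjusted by Benjamini-Hochberg over all genes, with a threshold of 0.05, and the fits were tested on simulated data. The members, lists, the 40 h against 26 h contrast and the alternatives were chosen with earlier results of these data known. Genes named are Dlk1, Meg3, Rian and Dio3, every member that passed a test, up to 8 of largest size per contrast with each array, and up to 4 called genes per list; others were named after their values were seen. Alternatives covered normalization, the constant, dim genes, probe sets, replicate block, weights, variance model, period, a linear term and each array left out. Replicate numbers did not pair the arrays.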

Additional observations from a re-analysis of the deposited data

How the results depend on the processing

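The number of the 44 genes called at 40 h against 26 h was 16, and 14 to 19 with values as deposited, other constants, other uses of probe sets, the replicate block, array weights or another variance model. With only genes above the median level in 3 arrays, 20 of the 44 were tested; then 2 were called at 40 h against 26 h, 4 by the F test and 0 by the cosine, where 5 had an unadjusted p under 0.05. Array weights gave 34 by the F test (54% of all genes) and 17 by the cosine. They gave 21 at 46 h against 22 h (18 higher, 3 lower), where values as deposited gave 8. Apart from the 54%, shares of all genes called in the alternative fits are not given here. The counts of those fits thus do not set the region apart. The cosine count was 2 with the replicate block, 2 with a linear term in time, 0 at a period of 22 h and 13 at 26 h. The replicate block left 14 calls by the F test, 4 at 46 h and 15 at 40 h; residuals of same-numbered arrays of different times correlated at a median r of -0.10 over 45 pairs, so the numbers were not taken as pairs. Leaving out 1 array gave 10 to 21 calls by the F test, 1 to 8 by the cosine, 1 to 8 at 46 h and 7 to 17 at 40 h. The sign of 2 uncalled differences at 40 h against 26 h turned: for Dlk1 it was 0.018 without replicate 1 at 26 h and 0.043 without replicate 2 at 40 h (range with 1 array left out -0.042 to 0.043), and for Meg3 -0.016 without replicate 2 at 26 h and -0.068 without replicate 1 at 40 h (range -0.068 to 0.077). The cause of these shifts was not tested beyond the fewer genes tested or arrays used. The number of arrays, 3 per time, limits the precision; signal over background was not assessed.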

Other observations

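Outside the region, 3 of 260 microRNA genes passed the 24 h cosine test: Mir103-2 (amplitude 0.16, fitted peak 26.1 h), Mir331 (0.16, 26.4 h) and Mir129-1 (0.22, 39.2 h). Mir103-2 and Mir331 thus had fitted peaks at the times of the members beyond Rian, and Mir129-1 had its highest mean at 40 h and its lowest at 26 h.

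The list of 36 other imprinted genes held Nckap1 in place of H19. Of these 36, 13 were higher and 4 lower at 46 h than at 22 h, where 21.2% of all genes were called. Zim1 was higher at 46 h than at 22 h by 0.78 (adjusted p = 1.98e-07 in limma), Igf2 by 0.52, Peg3 by 0.42 and Plagl1 by 0.52. The 4 lower genes were Nnat (-0.36, adjusted p = 0.000284), Tssc4 (-0.24), Sfmbt2 (-0.16) and Inpp5f (-0.15).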
